A study of Mus musculus with 2 samples.

Results

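The unfolded protein response and the integrated stress response were examined in myotubes of C2C12, a line of mouse myoblasts whose cells fuse once serum is lowered. The 32 genes were listed by name as sensors, transcription factors and targets of these pathways. They were read from 32 of 19938 genes that have a single-gene probe set on the array. All 32 were present in the table. Myotubes had been kept for 7 days in medium with 2% horse serum after growth in 10% fetal bovine serum. An adenoviral vector was then added at a multiplicity of 30 and left on the cells for 48 h. The vector Ad-DsRed encodes a red fluorescent protein and served as control, and Ad-caERα encodes estrogen receptor α in a form that is active without hormone, as its label (constitutively active) says. Both cultures were thus infected, and the comparison is between 2 vectors, not between infected and untouched cells. Each vector was profiled on 1 array from 150 ng of total RNA. The differences below therefore have no replicate check, and the vectors could not be compared by a test. The sources used here do not state whether a culture was pooled, nor which part of the receptor the vector carries.

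Proteins that enter the endoplasmic reticulum (ER) fold there with the help of chaperones and disulfide isomerases. When unfolded protein accumulates, the membrane sensors IRE1, PERK and ATF6 are activated. IRE1 splices the Xbp1 mRNA and ATF6 is cleaved in the Golgi, and the resulting transcription factors XBP1 and ATF6 induce chaperones and the machinery that extracts misfolded proteins for degradation. PERK phosphorylates the translation factor eIF2α, which lowers protein synthesis in general while ATF4 is translated more. ATF4 and its target CHOP, encoded by Ddit3, induce genes of amino acid supply, redox control and cell death. In skeletal muscle cells this response accompanies myoblast differentiation and is engaged by metabolic load. Other kinases also phosphorylate eIF2α, among them PKR, an interferon-induced sensor of viral RNA, and the pathway they share is called the integrated stress response. Xbp1 is known as an estrogen-induced gene in breast cancer cells.

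The ATF6 and XBP1 factors are known to act through the ER stress response element (ERSE), which reads CCAAT, then 9 free bases, then CCACG. ATF4 is known to act through the C/EBP-ATF response element (CARE), searched here as TGATG, any base, then AA. RefSeq promoter windows of build GRCm38.p6, from 250 bases before to 50 after the annotated start, were found for 27 of the 32 genes; Atf6, Hyou1, Manf, Derl1 and Ppp1r15b had no entry. An ERSE was found on either strand in 9 of these 27 genes (33.3%), against 37 of 27025 genes in the whole table (0.137%). Among measured genes, 18 held an ERSE, and 9 of those 18 were members. The element was first described in promoters of several of these genes, so this share is a description of the set and no independent result. All 10 matches are shown because the ATF6/XBP1 branch is divided by them below, after its values were seen. Each is written 5′ to 3′ in the direction in which the element reads, with 12 bases on either side and the CCAAT and CCACG parts in capitals.
Hspa5: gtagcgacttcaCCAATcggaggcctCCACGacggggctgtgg
Hsp90b1, distal: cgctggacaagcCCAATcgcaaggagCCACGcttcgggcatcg
Hsp90b1, proximal: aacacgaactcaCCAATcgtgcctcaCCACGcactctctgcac
Calr: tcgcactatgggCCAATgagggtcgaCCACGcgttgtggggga
Canx: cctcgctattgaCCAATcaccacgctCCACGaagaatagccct
Dnajc3: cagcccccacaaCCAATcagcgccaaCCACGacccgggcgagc
Creld2: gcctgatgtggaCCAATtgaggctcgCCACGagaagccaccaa
Pdia6: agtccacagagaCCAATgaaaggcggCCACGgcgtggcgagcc
Syvn1: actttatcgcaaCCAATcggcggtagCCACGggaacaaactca
Derl3: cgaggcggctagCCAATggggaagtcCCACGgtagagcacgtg

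The printed stretch for Hspa5 is chr2:34772013-34772055 on the plus strand. Those for Hsp90b1 are chr10:86705626-86705668 on the minus strand and chr10:86705521-86705563 on the plus strand. Calr is at chr8:84847063-84847105 (plus), Canx at chr11:50325788-50325830 (minus) and Dnajc3 at chr14:118937815-118937857 (plus). Creld2 is at chr15:88819508-88819550 (minus), Pdia6 at chr12:17266479-17266521 (plus), Syvn1 at chr19:6046520-6046562 (plus) and Derl3 at chr10:75893230-75893272 (minus). All 10 lie upstream of the annotated start. The nearest to it is that of Syvn1, whose match ends at position -26, and the farthest is the distal match of Hsp90b1, which begins at position -212 counted from it. In Calr, Creld2, Derl3 and the proximal match of Hsp90b1 the element reads against the direction of the gene.

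The related ERSE-II, which reads ATTGG, any base, then CCACG, was found in Herpud1 and Dnajb11, against 0.0444% of all genes; in Dnajb11 it lies just after the annotated start. The core of the unfolded protein response element, TGACGTG, was found only in Hspa5 among the 27 genes, and in 2.22% of all genes. CARE matches were found in Chac1, Herpud1 and Trib3, 11.1% of the 27 genes against 4.51% of all genes. The matches of Chac1 and Herpud1 are shown with that of ERSE-II because Herpud1 is the 1 member holding elements of both branches; the motif letters are in capitals.
Chac1, CARE: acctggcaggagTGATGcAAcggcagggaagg
Herpud1, CARE: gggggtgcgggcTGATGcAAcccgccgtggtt
Herpud1, ERSE-II: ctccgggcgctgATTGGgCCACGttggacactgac
The first is at chr2:119351037-119351068 on the minus strand, the second at chr8:94386305-94386336 on the minus strand and the third at chr8:94386365-94386399 on the plus strand. The match of Trib3 begins at position 15 after the annotated start. The estrogen response element, GGTCA, any 3 bases, then TGACC, was found in 0 of the 27 windows and in 0.074% of all genes, which says only that these letters are absent from these windows.

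**Figure D1:**
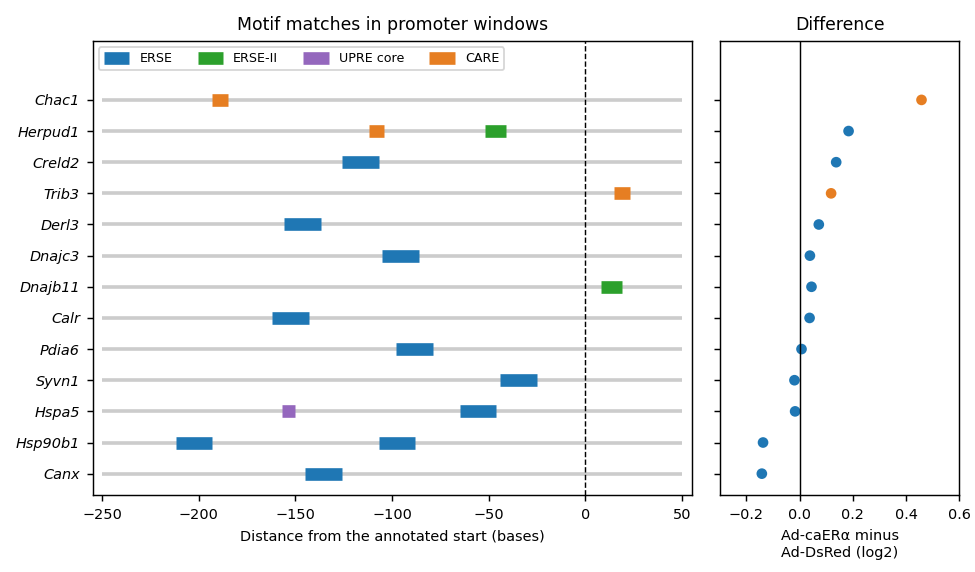
Motif matches in the promoter windows of the 13 members that hold any (left; horizontal axis, distance from the annotated start in bases, grey line the window searched) beside each gene's difference, Ad-caERα minus Ad-DsRed on the log2 scale (right; blue, ATF6/XBP1 branch; orange, ATF4/CHOP branch). Genes with an ERSE sit between -0.14 and 0.14, and Chac1, which holds a CARE, is at 0.46.

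Values are RMA signals on the log2 scale, and a difference is the Ad-caERα signal minus the Ad-DsRed signal. A gene was called measured when its higher signal passed 5.11, the 95th percentile of signal in 1210 probe sets for odorant and pheromone receptors, genes used mainly in the nose. All 32 genes passed on both arrays, and 13554 genes passed in all. The array labelled Ad-caERα had an Esr1 signal of 8.44 against 7.38, a 2.08-fold difference. The muscle markers fixed for the tissue check were all measured, 12 of 12, with signals from 8.18 to 13.00 and a median difference of -0.10. Of these 10 lay below 0, against 48.8% of all measured genes, with Atp2a1 (-0.52) and Mef2c (-0.39) lowest and Des (0.22) highest. Of 10 leukocyte markers 7 were below the floor on both arrays, Ptprc and Csf1r among them, as were 5 of 8 endothelial markers. Most fibroblast and adipocyte markers were measured, 6 of 8 and 4 of 7. Among them Dcn was at 13.11 and 13.18, Col1a2 at 10.14 and 9.90, Col1a1 at 9.41 and 9.40 and Pparg at 8.22 and 8.16. Whether other cell types were present was not tested. Plasma cells carry a high load of ER chaperones, and of 8 plasma cell markers 4 were below the floor on both arrays, Jchain, Prdm1, Irf4 and Tnfrsf17. The other 4 were measured and above 0, with Sdc1, a syndecan also found on other cells, at 9.57 and 9.77 (0.20) and Pou2af1, Ighm and Mzb1 between 5.30 and 5.87; their part in the results was not tested. In RNA from whole cultures, fewer cells of a type and less RNA per cell cannot be told apart.

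None of the 32 genes differed by 2-fold or by 1.5-fold in either direction. Of all measured genes 0.59% were higher by 2-fold or more in Ad-caERα and 0.0959% were lower by as much, so 0 of 32 is near that background. At 1.5-fold the shares were 1.82% higher and 0.885% lower. With a lower limit of 0.32 on the log2 scale 4 genes were higher, Chac1, Sdf2l1, Ern1 and Xbp1, and 0 were lower, against 7.34% and 6.76% of all measured genes. In direction 24 of the 32 genes lay above 0, 7 below it and Eif2ak3 exactly at 0, whereas 50.2% of all measured genes lay above 0 and 48.8% below it. The median difference was 0.073 over the 32 genes and 0.0017 over all measured genes. Ribosomal protein genes, described below, leaned further than the 32 genes, with 31 of 36 above 0 and a median of 0.097. The differences between the arrays varied among measured probe sets of the same gene with a pooled SD of 0.13, over 754 genes. By that yardstick 13 of the 32 genes lay more than 0.13 above 0, 2 lay more than 0.13 below it and 17 lay within it. Among all measured genes 26.6% lay above the same limit and 25.2% below its negative, so the 13 genes made up a larger share than the background and the 2 genes a smaller one, without a test. The SD describes probe sets on the same pair of arrays and holds nothing of the spread between cultures.

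**Figure D2:**
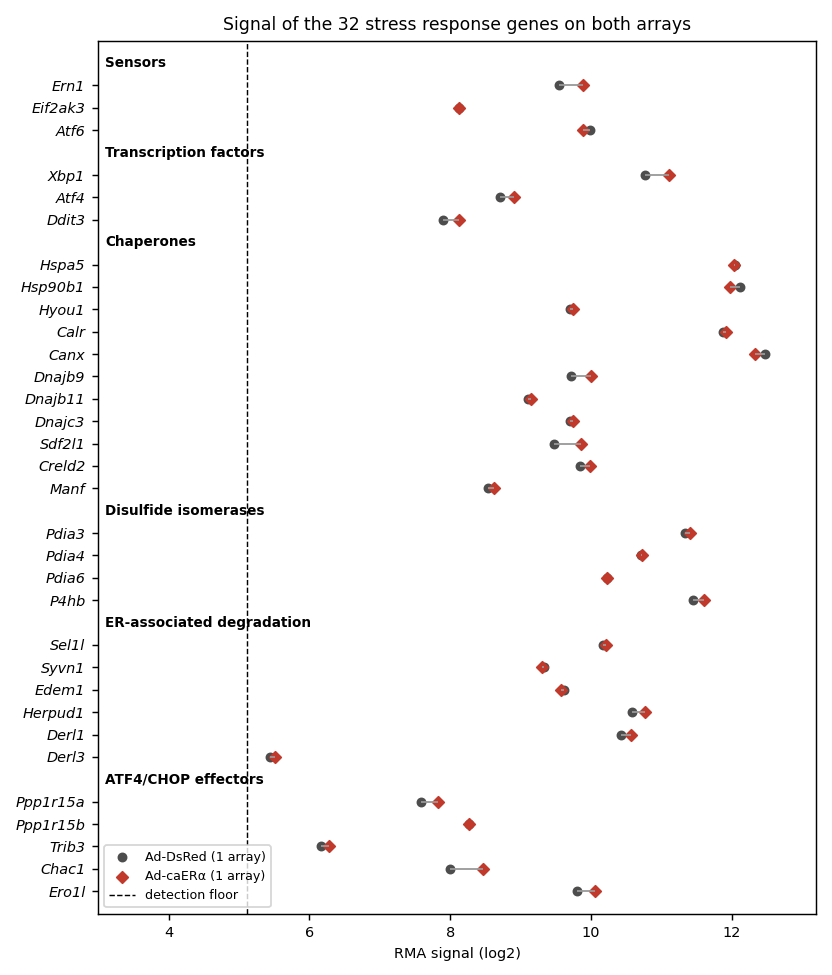
RMA signal (log2, horizontal axis) of the 32 genes on the Ad-DsRed array (grey circles) and the Ad-caERα array (red diamonds), grouped by role, with the detection floor of 5.11 dashed. Both points of every gene lie above the floor, and the widest gap is that of Chac1, at 8.0 and 8.46.

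The 3 sensors did not share a direction. Ern1, which encodes IRE1α, the kinase and RNase that splices Xbp1 mRNA, had signals of 9.55 in Ad-DsRed and 9.89 in Ad-caERα. Its difference of 0.34, or 1.27-fold, lay above 93.6% of all measured genes. Eif2ak3, which encodes PERK, had the same signal of 8.13 on both arrays, a difference of 0 that 140 of the 13554 measured genes share. Atf6 was at 9.98 and 9.88, a difference of -0.10. The sensor transcripts thus spread from below 0 to above it. Activation of these proteins takes place by phosphorylation or cleavage, which an RNA signal does not measure.

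All 3 transcription factor genes were higher on the Ad-caERα array. Xbp1 was at 10.77 and 11.10, a difference of 0.33 that lay above 92.8% of measured genes. The gene-level signal does not separate spliced from unspliced Xbp1 mRNA. Atf4, whose protein is mainly controlled in translation, was at 8.71 and 8.90, a difference of 0.18. Ddit3, which encodes the pro-apoptotic factor CHOP, was at 7.90 and 8.13, a difference of 0.23. The median of the group was 0.23, and each of the 3 exceeded the probe set SD of 0.13. Of all measured genes 50.2% lay above 0 and 26.6% above that SD.

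Among the 11 chaperones and cochaperones 8 lay above 0 and 3 below, with a median of 0.044. The major chaperones were nearly level between the arrays or slightly lower in Ad-caERα. Hspa5, which encodes BiP, the ER HSP70 that also holds the sensors inactive, was at 12.05 and 12.03, a difference of -0.017. Hsp90b1, the ER HSP90, was at 12.12 and 11.98, a difference of -0.14 or 1.10-fold lower. Canx, encoding the membrane lectin calnexin, was at 12.47 and 12.33, also a difference of -0.14. Its soluble relative calreticulin, Calr, was at 11.88 and 11.92, a difference of 0.037. BiP transcript is the usual readout of this response, and here its difference was smaller than the probe set SD. Hyou1, a large HSP70 relative that exchanges nucleotide on BiP, was at 9.70 and 9.75, a difference of 0.047.

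The J-domain cochaperones, which stimulate the ATPase of BiP, differed among themselves. Dnajb9, a well-known XBP1 target that returns IRE1 to its inactive state, was at 9.72 and 10.00, a difference of 0.28 or 1.21-fold. Dnajb11 was at 9.10 and 9.15 (0.044). Dnajc3, an inhibitor of PERK signalling, was at 9.70 and 9.74 (0.038); its 2 probe sets carry identical values and are 1 measurement. Sdf2l1, a partner of the J-domain proteins, had the largest difference of the chaperone group, 0.38 or 1.30-fold, with signals of 9.48 and 9.86. Only Chac1 of the 32 genes exceeded it. Creld2, an ER stress-inducible isomerase-like protein, was at 9.85 and 9.99 (0.14), and Manf, a secreted survival factor retained by BiP, at 8.53 and 8.62 (0.096). Sdf2l1 and Dnajb9 were therefore the 2 chaperone genes that stood beyond 0.2, while 6 of the other 9 lay within the probe set SD of 0.13.

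The 4 disulfide isomerases, which form and reshuffle disulfide bonds, all lay above 0 by small amounts, with a median of 0.042. P4hb, which encodes protein disulfide isomerase itself, was at 11.45 and 11.61, a difference of 0.15. Pdia3, the isomerase that works with calnexin and calreticulin, was at 11.33 and 11.41 (0.075). Pdia4 was at 10.71 and 10.72 (0.0098) and Pdia6, which also acts on IRE1, at 10.22 and 10.23 (0.0069); both turned slightly negative under quantile normalization and under loess correction. A second probe set of Pdia4 had 4.94 and 5.45, below the floor on the Ad-DsRed array. Averaging both probe sets moved the difference of Pdia4 to 0.26 and the group median to 0.12.

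Of 6 genes of ER-associated degradation, which exports misfolded proteins to the proteasome, 4 lay above 0 and 2 below, with a median of 0.057. Herpud1, a membrane organizer of the export complex that both branches are known to induce, was at 10.58 and 10.77, a difference of 0.18. Derl1, a channel-like component, was at 10.43 and 10.57 (0.14), and its relative Derl3 at 5.44 and 5.51 (0.072), close to the floor. The core ubiquitin ligase showed little difference: its catalytic subunit Syvn1, also called HRD1, was at 9.33 and 9.31 (-0.020), and its adaptor Sel1l at 10.17 and 10.21 (0.042). Edem1, which trims glycans of misfolded glycoproteins, was at 9.62 and 9.57 (-0.056).

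Effectors of the ATF4 and CHOP branch had the highest group median, 0.24 over 5 genes, of which 4 lay above 0. Chac1, a glutathione-degrading enzyme induced by ATF4 and CHOP, was at 8.0 and 8.46. Its difference of 0.46, or 1.37-fold, was the largest of the 32 and lay above 96.8% of measured genes. Ero1l (Ero1a in the annotation used), the oxidase that recharges disulfide isomerases, was at 9.80 and 10.05 (0.25). The stress-induced eIF2α phosphatase subunit Ppp1r15a, or GADD34, was at 7.58 and 7.82 (0.24). Its constitutive counterpart Ppp1r15b was at 8.26 on both arrays (-0.0064), or 0.049 with its 2 probe sets averaged. The pair thus differed between the inducible and the constitutive subunit. Trib3, a pseudokinase that restrains ATF4 and CHOP, was at 6.17 and 6.28 (0.12).

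**Figure D3:**
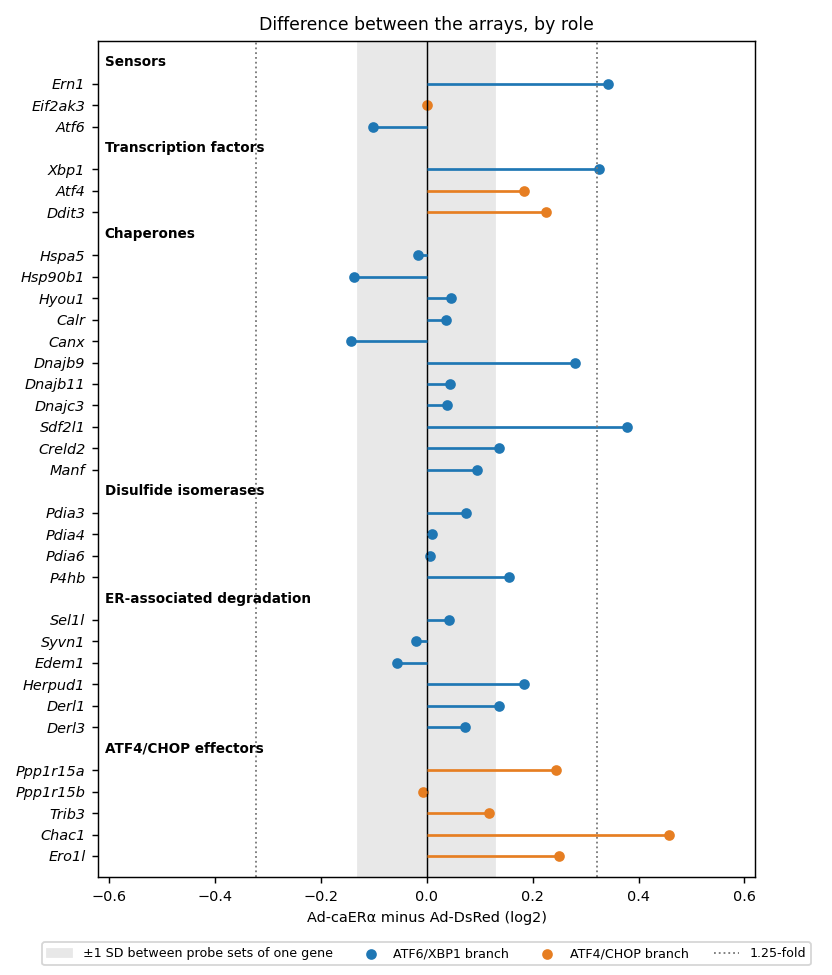
Difference of each gene between the arrays (Ad-caERα minus Ad-DsRed, log2) by role, coloured by branch. The grey band is ±0.13, the SD of this difference among probe sets of the same gene. Dotted lines mark 0.32 on either side of 0. Chac1, Sdf2l1, Ern1 and Xbp1 lie beyond the right dotted line and no gene beyond the left.

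The branch comparison set 24 genes of the ATF6/XBP1 branch, chaperones, isomerases and degradation genes with their regulators, against 8 genes of the ATF4/CHOP branch with PERK. The median difference was 0.046 for the ATF6/XBP1 branch and 0.205 for the ATF4/CHOP branch, so that the former minus the latter was -0.16. The same share of each branch lay above 0, 18 of 24 and 6 of 8. Among all measured genes it was 50.2%, and among ribosomal protein genes 31 of 36. The branches overlapped: the ATF6/XBP1 branch ran from -0.14 to 0.38 and the ATF4/CHOP branch from -0.0064 to 0.46. With targets only, leaving out sensors and transcription factors, the medians were 0.044 and 0.24. Means gave 0.081 and 0.18, a gap of -0.10. The ATF6/XBP1 median was 0.019 with a further quantile normalization and to 0.027 with a loess correction for signal level, and the ATF4/CHOP median then stood at 0.18 and 0.17. Genes are not replicates, and with 1 array per vector the gap between the branches has no test.

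**Figure D4:**
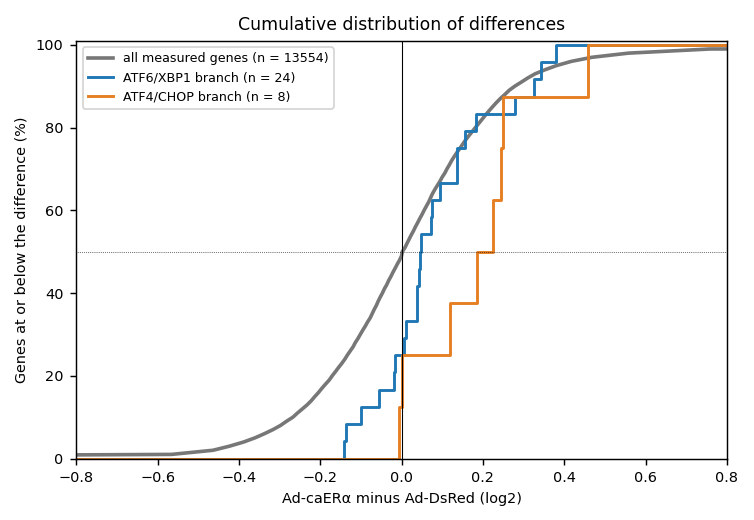
Cumulative share of genes (vertical axis, percent) at or below each difference (horizontal axis, Ad-caERα minus Ad-DsRed, log2) for the ATF6/XBP1 branch (24 genes), the ATF4/CHOP branch (8 genes) and all 13554 measured genes. The ATF6/XBP1 branch crosses the dotted 50% line near its median of 0.046, the ATF4/CHOP branch near 0.205 and all genes near 0.

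Within the ATF6/XBP1 branch the genes that hold an ERSE in the window lay near 0. The 9 ERSE genes had a median of 0.0069, with 5 above 0 and a range from -0.14 to 0.14. The 11 genes of the same branch with a promoter window and no ERSE match had a median of 0.155, with 10 above 0. Their range was from -0.056 to 0.38. Of all measured genes 50.2% lay above 0, and of 36 ribosomal protein genes 31. These 11 are not free of related elements, since Herpud1 and Dnajb11 hold an ERSE-II. They also include the regulators Ern1 (0.34) and Xbp1 (0.33), whereas the 9 ERSE genes include no sensor or transcription factor. Neither group holds Atf6 (-0.10), Hyou1 (0.047), Manf (0.096) or Derl1 (0.14), branch members that had no window. The ERSE genes ran from Canx and Hsp90b1 (both -0.14) through Pdia6 at the median to Derl3 (0.072) and Creld2 (0.14). Those without a match ran from Edem1 (-0.056), Pdia4 (0.0098), Sel1l (0.042) and Dnajb11 (0.044) through P4hb at the median to Ern1 (0.34) and Sdf2l1 (0.38). The median of the ERSE genes turned slightly negative, down to -0.023, under both higher floors, quantile normalization and loess correction. This split was made after the values were seen, the ranges overlap, and no match says only that these letters are not in this window. The 3 members with a CARE were at 0.46 (Chac1), 0.18 (Herpud1) and 0.12 (Trib3), in a set of which 24 of 32 lay above 0; CARE genes of the further lists lay on both sides of 0.

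Further ATF4 targets, given as a separate list of 30 genes, had a median of 0.12 over the 27 measured, with 18 above 0 and 9 below. None reached 2-fold. Past the limit of 0.32 on the log2 scale 7 of the 27 were higher and 1 lower, against 7.34% and 6.76% of all measured genes. The highest were Cebpb, a bZIP factor that partners ATF4, at 7.07 and 7.77 (0.70), and Slc6a9, a glycine transporter, at 10.21 and 10.84 (0.62). The lowest with both signals above the floor were Phgdh, the first enzyme of serine synthesis, at 7.99 and 7.60 (-0.39), and Psat1, the next enzyme of that path, at 10.51 and 10.39 (-0.11). Slc7a3, an arginine transporter, was at 5.15 in Ad-DsRed and below the floor in Ad-caERα, at least 1.03-fold lower. Asparagine synthetase, Asns, the classic amino acid response gene, was at 10.85 and 10.96 (0.11), and Atf3 at 9.36 and 9.56 (0.20); the list ran in both directions, and Psph, the last enzyme of serine synthesis, was at 0.20. Asns, Atf3 and Psph were picked with their values known, as were the CARE genes named next. A CARE was found in 8 of the 23 genes of the list with a promoter window (34.8%), against 4.51% of all genes and 2.68% of measured genes. The list was made of ATF4 targets, so this share describes it and is no independent result. The 8 genes were Asns, Atf3, Fgf21, Gars, Iars, Nupr1, Slc7a11 and Vldlr. Of the 7 measured among these, Vldlr, a lipoprotein receptor, had the highest difference, 0.51, and the hormone gene Fgf21 the lowest, -0.090.

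A list of eIF2 kinases, eIF2 and eIF2B subunits and the separate initiation factor eIF2A had 6 of 11 measured genes above 0 and a median of 0.092, or 0.056 with quantile normalization and 0.054 with loess correction. Subunits of eIF2B, the exchange factor that phosphorylated eIF2 inhibits, were above 0 in all 5 cases, against 50.2% of all measured genes. They were picked out of the list after the values were seen. Eif2b3 (0.11) and Eif2b5 (0.092) lay within the probe set SD of 0.13. The highest of the list were Eif2b4 at 7.59 and 7.96 (0.37) and Eif2b1 at 8.39 and 8.71 (0.33). The lowest were Eif2ak2, which encodes PKR, at 8.41 and 8.06 (-0.35), and Eif2s2, a subunit of eIF2, at 9.95 and 9.77 (-0.18). Eif2ak2 is also an interferon-stimulated gene, and of 15 measured genes of that list 15 were below 0, against 48.8% of all measured genes. The median of the interferon-stimulated list was -0.47. By the 2-fold rule 5 of the 15 were lower, against 0.0959% of all measured genes. They were Ifit1 (5.22-fold), Ifit3 (2.97-fold), Usp18 (2.74-fold), Oasl2 (2.42-fold) and Cxcl10 (2.06-fold). The Ad-caERα signal of Cxcl10 did not reach the floor, which gives a bound of at least 1.54-fold lower. With signals held at the floor 4 of the 15 were lower by 2-fold. The part of this interferon difference in the stress response values was not tested.

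Other genes of the ER pathway were also mostly above 0, against 50.2% of all measured genes. So were ribosomal protein genes, which are no part of that pathway, at 31 of 36. Folding enzymes and cochaperones outside the 32 genes had 16 of 18 above 0 and a median of 0.15, with Fkbp14, a prolyl isomerase that acts on collagen, highest at 7.90 and 8.60 (0.70), then Cnpy2 (0.30), and Calu (-0.088) and Dnajc10 (-0.0022) lowest. Further degradation genes had 13 of 16 above 0 and a median of 0.15; the selenoproteins Selenos, at 8.20 and 8.63 (0.43), and Selenok (Selk, 0.29) were highest, and Ufd1 (-0.074) and Vcp (-0.061), parts of the extraction ATPase, lowest. Translocon, signal peptidase and glycosylation genes had 15 of 19 above 0 and a median of 0.15, from Sec61b (0.45) and Ssr3 (0.43) to Sec62 (-0.10) and Spcs3 (-0.088). ER-resident bZIP factors, their proteases and related signalling genes had 9 of 12 measured above 0 and a median of 0.11. Creb3, a Golgi-cleaved relative of ATF6, was highest at 9.91 and 10.39 (0.48), followed by Wfs1 (0.34), an ER membrane protein mutated in Wolfram syndrome, while Bbc3 (-0.29), which encodes the pro-apoptotic protein PUMA, and Creb3l3 (-0.20) were lowest. No gene of these lists reached 2-fold.

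Lists from outside the ER pathway were also read, ribosomal protein genes as a yardstick and cytosolic heat shock genes for comparison. Ribosomal protein genes had 31 of 36 above 0 and a median of 0.097 with an SD of 0.12; the median was 0.053 with quantile normalization and 0.070 with loess correction. Cytosolic heat shock proteins, the chaperones of the cytosol, had 11 of 21 above 0 and a median of 0.010, with Hspa1a (0.49) and Cryab (0.34) highest and Hspa4l (-0.37) and Dnaja1 (-0.25) lowest; the median was -0.025 with loess correction. Hspa1a has a near-identical copy, so its signal is uncertain. By signal level, 21 of the 32 genes fell in the brightest of 4 equal groups of measured genes, where 54.3% of genes lay above 0 with a median of 0.019, and 16 of the 21 members there lay above 0. The median of the 21 was 0.047. In the dimmest group 34.3% of all measured genes lay above 0.

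**Figure D5:**
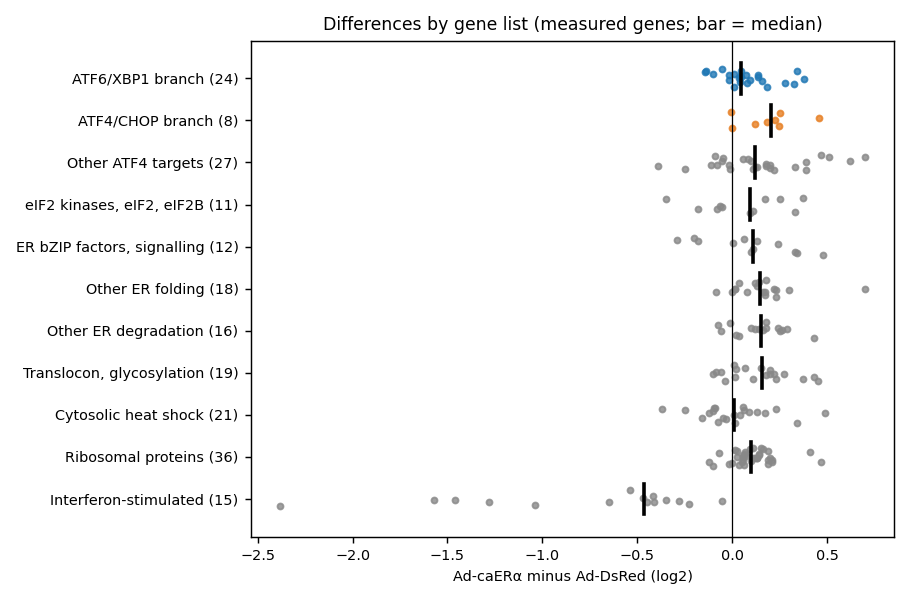
Difference of every measured gene (points; Ad-caERα minus Ad-DsRed, log2, horizontal axis) in the 2 branches and the lists described, with the number measured in brackets and the median as a bar. The pathway medians lie between 0.046 and 0.205, that of ribosomal proteins at 0.097 and that of interferon-stimulated genes at -0.47.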

How the data were processed

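Biotin-labelled cRNA from differentiated C2C12 cells was read on 2 Affymetrix arrays, 1 per vector. Each deposited value is a log2 signal of 1 probe set, made with Affymetrix Expression Console and RMA per the submitters' processing notes. RMA corrects background, quantile-normalizes arrays and summarizes probes; tool versions: not given in the sources used here. It compresses weak signals and hides changes in total mRNA. Of 35556 probe sets, 21789 name 1 gene in the platform annotation, 1621 several and 12146 none; identifiers of 21698 matched RefSeq (GRCm38.p6). A gene with several probe sets was represented by the brightest on average. With 1 array per group the number of arrays limits the precision, no test was made, and counts use folds of 2 and 1.5 and a lower limit of 0.32 on the log2 scale. All 32 members are named; of further lists, up to 2 highest, 2 lowest and any past 2-fold. The members and lists were chosen with earlier results of these data known. Motifs were searched on both strands of 32851 promoter windows. The shares of all genes beyond the probe set SD were added after seeing the data. Protein sequences were not used here. The code was tested on simulated data. Scripts ran in Python 3.11.15 with statsmodels 0.14.6, pandas 2.3.3 and numpy 2.4.6.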

Additional observations from a re-analysis of the deposited data

How the results depend on the processing

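No paired analysis was possible because there was only 1 array for each vector, which also left no replicate to omit. The spread between cultures is unknown, and signals near the floor are imprecise. The alternatives were other floors, centring, quantile normalization, loess correction, averaging of probe sets, other folds, means and other branch assignments. The ATF6/XBP1 median ranged from 0.019 to 0.081 and the ATF4/CHOP median from 0.17 to 0.24; the gap between them ranged from -0.20 to -0.10. The 0.081 and -0.10 came from taking means. With the limit lowered to 0.32 the count of higher genes was 4 in place of 0. Between 22 and 25 genes lay above 0, of 31 or 32 measured. Averaging probe sets gave medians of 0.115 for disulfide isomerases and -0.031 for cytosolic heat shock proteins. Quantile normalization and loess gave 0.096 and 0.095 for further ATF4 targets and 0.053 and 0.070 for ribosomal proteins; loess gave -0.025 for cytosolic heat shock proteins. Of 254 recalculations for single genes, 253 moved by less than the probe set SD, the exception being Pdia4. Of 172 recalculations for branches and lists, 157 kept the sign; the others were the sensors, whose median is 0, the ERSE genes and the heat shock proteins. The causes were not tested. The ERSE split was added after seeing the data.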
